A study of Mus musculus with 32 samples.

Results

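Parathyroid cells that had grown from mouse embryonic stem cells (ESC) were compared between a newborn rat host and grafted tissue. Of the 32 libraries of the series, 8 were compared, 4 per arm, taken by their titles. The rat-host arm came from a neonatal Wistar rat, Gcm2-/-, of unknown sex, that had been complemented with mouse ESC carrying a Pth-tdTomato reporter. The graft arm came from Gcm2-/- animals on a BDF1B6 background, also complemented with Pth-tdTomato mouse ESC, and its cells were labelled male and 12 weeks old. All 8 libraries therefore hold mouse cells with a fluorescent reporter of the parathyroid hormone gene that were taken from a host lacking Gcm2. Each library is RNA from 10 to 20 fluorescent cells picked by hand, made into cDNA with a SMART-Seq HT kit. The labels name the rat in the singular and do not give the graft site, the number of animals or the ESC line of each arm. The p-values therefore measure only the spread between pools, which may be technical. Host species, age, sex label and grafting differ between the arms together and cannot be told apart. Y-linked genes were low in both arms, as given below with the cell-type markers, and whether the cells differ in sex was not tested.

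Parathyroid cells release parathyroid hormone when blood calcium falls, and the calcium-sensing receptor holds release back when calcium is high. Gcm2 is the transcription factor without which the gland does not form, so in a Gcm2-deficient host the gland space can be filled by donor cells. Newborn rodents still grow their endocrine glands, whereas adult parathyroid cells divide rarely and store hormone beside the acidic granule protein chromogranin A.

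The 8 libraries held 11578193 to 14072323 reads, and 12760 to 13102 genes had a read in rat-host libraries against 11566 to 12282 in graft libraries (exact permutation test, two-sided, p = 0.0286, the smallest that 4 against 4 allows, adjusted p = 0.0429 over 6 library values). Most marker lists of other cell types were low or absent in most libraries. Graft replicate 1 stood apart, with 418 CPM (read counts scaled to a common library size) summed over 8 fibroblast markers, against 0.507 to 86.0 CPM in the other graft libraries and 0.337 to 12.0 CPM in the rat host. The same library held 29.5 CPM of macrophage markers, which had no read in the rat host, and 12.4 CPM of red-cell markers. It also held 28.7 CPM of adipocyte markers (25.6 CPM in graft replicate 2), 18.7 CPM of Schwann cell and neuron markers and 18.4 CPM of pericyte markers. MHC class II markers, all 7 with reads in each arm, summed to 51.3 to 68.1 CPM in rat-host libraries. In graft replicates 1 to 4 they summed to 119, 36.9, 32.1 and 4.57 CPM. Sums of the T cell list were 9.98 to 37.7 CPM for rat-host libraries and 0 to 16.6 CPM for graft libraries, nearly all of it Lck (a kinase gene of T cells), and 4 of its 7 members, Cd3d, Cd3e, Cd3g and Cd4, had no read in either arm. The thymic epithelium list summed to 9.40 to 26.8 CPM and to 1.14 to 15.8 CPM, nearly all of it the chemokine gene Ccl25, with Foxn1, Krt14, Aire and Trp63 at 0 in both arms. The thyroid follicle list summed to at most 3.03 CPM in any library, with Tshr, Pax8 and Nkx2-1 at 0 in both, and the endothelium list to at most 0.724 CPM, with Cdh5 and Kdr at 0 in both. The 4 listed Y-linked genes summed to 0.8807 to 2.698 CPM in rat-host libraries and to 1.303 to 8.482 CPM in graft libraries. Of these genes 1 was tested between the arms, and it was not called. Without graft replicate 1 the number of genes called between the arms was 999. What part these cells take in the results was not tested.

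Rat-host and grafted cells differed in many genes, and both arms held the parathyroid markers, all 6 of which had reads in each arm. Of the 28 pairs of experiments in the series this pair had the lowest correlation of mean log CPM over genes (r = 0.844), which is how the pair was chosen and is given as a description. edgeR's quasi-likelihood test with Benjamini-Hochberg adjustment called 840 of 11255 genes at an adjusted p below 0.05 (7.46%), 430 higher in the rat host (3.82%) and 410 lower (3.64%). Counts of called list members given below are to be read beside these shares. The levels of 835 of the 840 did not overlap between the arms, against 2151 of all genes tested (19.1%), of which 10.7% were higher and 8.46% lower in the rat host as shares of the genes tested. The genes higher in the rat host had larger fitted fold changes, with a median log2 fold change of 2.10 against -1.06 for the lower ones. Of the 430, 141 had at most 3 reads in the graft, 88 of them none. For the 410, 6 had at most 3 reads in the rat host, 2 of them none. Fitted folds at so few reads depend on the prior count, so the 2 medians do not compare measured sizes. The median level in the higher arm was 79.8 CPM for the 430 and 176 CPM for the 410.

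The calls were weighed in a further fit on counts summed per experiment, in which the 6 experiments on adult cells supply the spread. Of these, 4 hold ungrafted mouse ESC-derived cells from Gcm2-/- mice at 9 weeks (mouse-host cells). The other 2 hold control parathyroid cells at 8 and 11 weeks. Adult ranges given below therefore mix ESC-derived and control cells. The rat host and the graft have 1 sum each in the fit and are assumed to vary like the other arms. That fit called 126 of 15698 genes (0.803%), 79 higher and 47 lower, and 80 were called in both fits, each in the same direction. The split was 62.7% higher in it, against 51.2% in the main fit. On the TPM scale it was 91.9% higher, where the median of all genes moved to 0.55. The count of 840 fell to 424 without rat-host replicate 1, 329 without replicate 2, 316 without replicate 3 and 323 without replicate 4.

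The adult experiments also give a range in which each arm can be placed. Genes called between the arms seldom had both means inside it, 3.02% of the higher and 1.71% of the lower ones, against 34.7% of all genes tested. The shares below are therefore partly set by the choice of called genes. Among the 430 genes higher in the rat host, the rat-host mean lay outside the range of the 6 adult means and the graft mean inside it for 37.0%, against 22.3% of all genes tested. The reverse held for 16.5%, against 22.8%, and both means lay outside for 43.5%, against 20.2%. Among the 410 lower genes these shares were 30.5%, 25.6% and 42.2%. Where both means lay outside, the shares do not give a side.

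**Figure D1:**
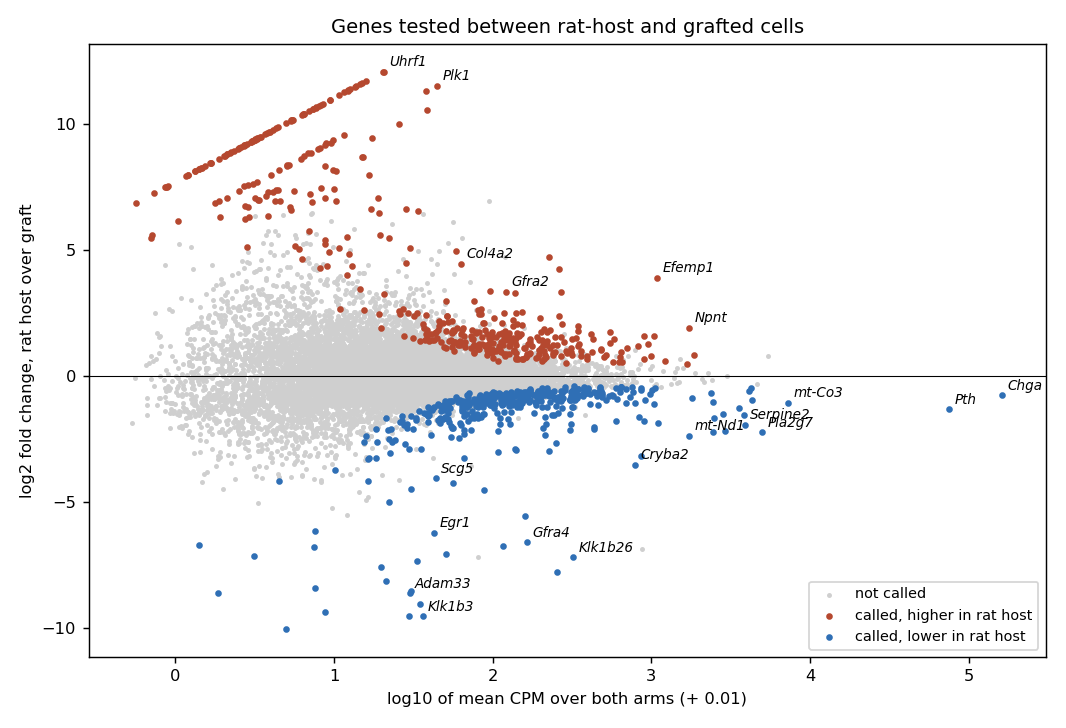
Log2 fold change of rat host over graft (y axis) against log10 of the mean CPM of both arms (x axis) for the 11255 genes tested, with the 430 genes called higher in the rat host in red and the 410 called lower in blue. The straight upper line of red points holds genes without a graft read, whose fitted fold change depends on the prior count and is not a measured size. Efemp1 and Npnt stand out among the strongly expressed higher genes, and Pth, Chga, Pla2g7 and Serpine2 among the lower ones.

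The hormone transcript was lower in rat-host cells, while those of the calcium receptor and of Gcm2 did not pass the test. Gcm2 was present in every library, at 780, 635, 755 and 658 CPM in rat-host replicates 1 to 4 and at 503, 614, 515 and 603 CPM in graft replicates 1 to 4. Its levels did not overlap, with a log2 fold change of 0.32 (SE 0.11) and an edgeR adjusted p of 0.138, so it was not called; DESeq2 called it (adjusted p = 0.0203). Casr, the calcium-sensing receptor, stood at 356, 416, 413 and 325 CPM against 507, 369, 443 and 347 CPM, overlapped between the arms and had a log2 fold change of -0.16 (SE 0.15), which was 0.36 on the TPM scale.

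Pth took 5.24%, 4.97%, 4.999% and 4.94% of the reads of the rat-host libraries. In the graft libraries its share was 8.99%, 10.3%, 10.6% and 11.2%. Every graft library was above every rat-host library, and the rat-host libraries were also below the 24 adult libraries (6.88% to 12.1%). The shares differed by the exact permutation test (two-sided p = 0.0286, adjusted p = 0.0429, 4 of 4 rat-host libraries lower). On the TPM scale the log2 fold change of Pth was -0.71, where the median of all genes was 0.55. By edgeR, Pth was lower by a log2 fold change of -1.34 (SE 0.10, adjusted p = 0.000181), from 107616 ± 14927 to 43108 ± 1514 CPM (SD, n = 4), and the call held on experiment sums (adjusted p = 0.0382) and in every other alternative in which Pth was tested, which leaves out the scaling without the 10 most abundant genes, since Pth is among them.

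Chga, the gene of chromogranin A, took 15.0%, 13.4%, 13.8% and 14.3% of reads in the rat host and 19.7%, 15.0%, 21.7% and 21.6% in the graft. Graft replicate 2 sat at the level of the rat host, and the shares did not pass the exact permutation test (two-sided p = 0.0571, adjusted p = 0.0686). On the scaled counts Chga was called lower (log2 fold change -0.78, SE 0.14, edgeR adjusted p = 0.0101). That call was lost on experiment sums (adjusted p = 0.0991), by limma voom (0.0541) and by limma-trend on TPM (0.224).

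Of 13 tested genes of parathyroid identity, 3 were called lower (Pth, Chga and Kl) and 1 higher (Gata3), with a median log2 fold change of 0.26 against -0.0031 over all genes. Kl, the co-receptor of the phosphate hormone FGF23, had a log2 fold change of -0.64 (SE 0.13, edgeR adjusted p = 0.0195). Gata3, a transcription factor needed for the gland, had 0.75 (SE 0.20, adjusted p = 0.0496). Both lost the call on experiment sums (0.454 and 0.249). Kl lost its call without rat-host replicate 2, 3 or 4 (adjusted p 0.0638 to 0.0677) and on the TPM scale (0.770), and Gata3 without graft replicate 3 or 4 or any of the rat-host libraries (0.0631 to 0.140). Vdr, which encodes the receptor of vitamin D, had a log2 fold change of 0.26 (SE 0.11, adjusted p = 0.231). Among 7 tested granin and prohormone-processing genes, Scg5 was the other one called. It encodes the small chaperone 7B2 of a prohormone convertase and was at 6.78, 2.40, 4.18 and 6.61 CPM in the rat host against 107, 56.8, 98.5 and 68.7 CPM in the graft. The arms were far apart, at a log2 fold change of -4.07 (SE 0.44, edgeR adjusted p = 0.00105; 0.0290 on experiment sums), and the adult experiment means of 41.0 to 109 CPM lay with the graft. In bulk pools, fewer cells with a transcript and less of it per cell cannot be told apart.

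**Figure D2:**
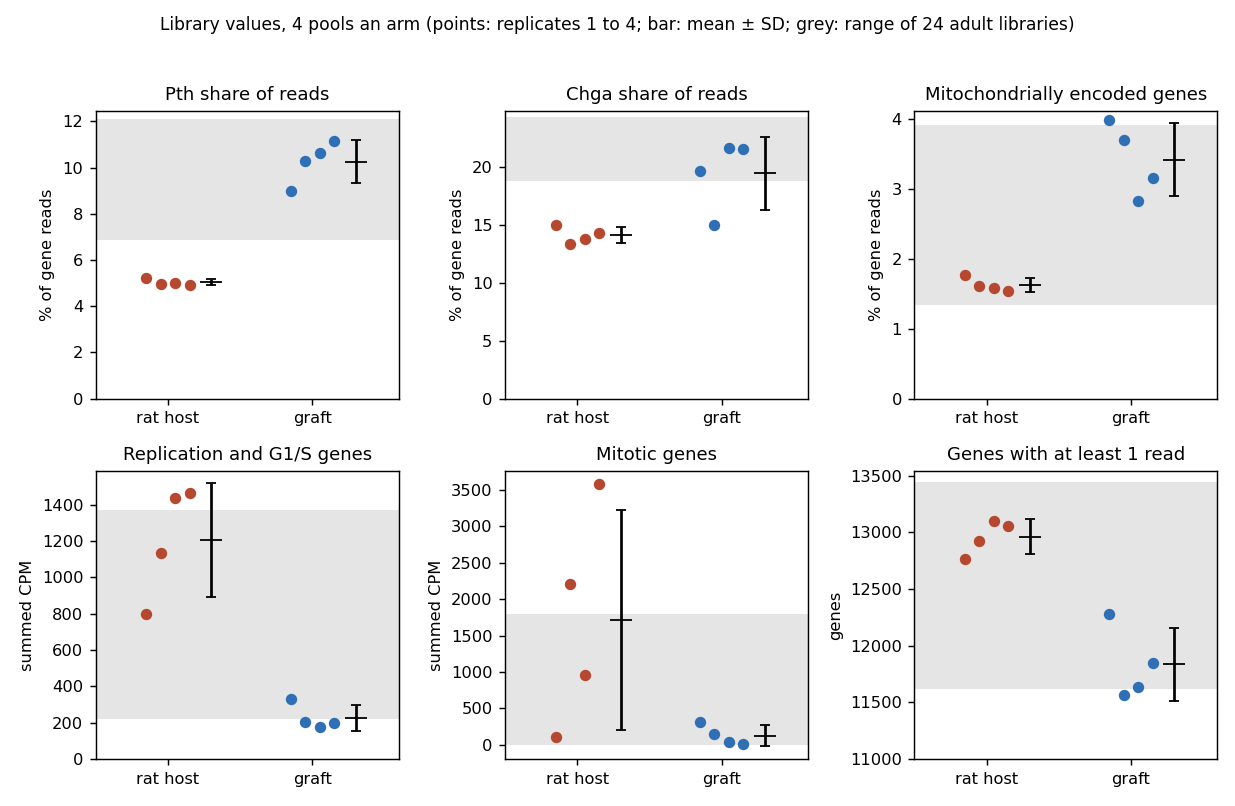
Values of 6 measures per library for rat-host (red) and graft (blue) pools, each point 1 library and the black bar the mean ± SD of 4; y axes give the share of reads in percent, summed CPM or the number of genes, and the grey band is the range of the 24 adult libraries. The arms are apart for Pth, mitochondrial reads, replication genes and genes detected, and overlap for Chga and for mitotic genes.

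Replication and G1/S genes, which copy the DNA, summed to 797, 1132, 1436 and 1463 CPM in the rat host and to 331, 201, 178 and 196 CPM in the graft (exact permutation test, two-sided p = 0.0286, adjusted p = 0.0429, higher in 4 of 4 rat-host libraries). The adult libraries ranged from 218 to 1373 CPM. Rat-host replicates 1 and 2 lay inside that range and replicates 3 and 4 above it, while graft replicates 2, 3 and 4 lay below it. Of 19 tested members all 19 had a positive log2 fold change (median 3.32), against 5607 of all 11255 genes tested. Members without a graft read passed the low-count filter through the rat host, so their direction is no result. Of the 19, 4 were called higher, where 3.82% of all genes tested were. The 4 calls became 2 without any 1 of the rat-host libraries and 8 without graft replicate 1. Uhrf1, which carries DNA methylation through replication, was at 30.3, 42.1, 48.7 and 42.4 CPM in the rat host and had no read in any graft library. It was at least 662-fold higher, taking a floor of 3 reads over the arm (edgeR adjusted p = 0.00105; 0.00541 on experiment sums), and the adult means lay between, at 10.4 to 19.8 CPM.

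The licensing factor gene Cdt1 likewise had no graft read and was at least 269-fold higher (edgeR adjusted p = 0.00871; 0.0860 on experiment sums). The helicase subunit gene Mcm5 (66.5 against 0.710 CPM, adjusted p = 0.0244) and the licensing gene Cdc6 (8.17 CPM against no graft read, adjusted p = 0.0180) were also called, but not on experiment sums (0.519 and 0.512). Both lost the call without any 1 of the rat-host libraries, at adjusted p of 0.0535 to 0.0843 for Mcm5 and 0.0528 to 0.0635 for Cdc6. Without graft replicate 3, which held nearly all graft reads of Mcm5, its log2 fold change went from 6.54 to 10.9. The maintenance methyltransferase gene Dnmt1 was at 73.1 against 18.2 CPM (edgeR log2 fold change 1.99, SE 0.33; adjusted p = 0.00748; 0.0955 on sums), 1 of 3 called members of 9 tested DNA methylation genes. H2afx, the histone variant of DNA damage sites, was at 147 against 22.96 CPM (2.66, SE 0.47, adjusted p = 0.0110; 0.0293 on experiment sums), and limma voom did not call it (0.0905).

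Mitotic genes differed widely among the rat-host pools. Their sum was 105, 2212, 963 and 3582 CPM in rat-host replicates 1 to 4 and 314, 152, 35.0 and 4.40 CPM in the graft. Rat-host replicate 1 lay below graft replicates 1 and 2, so the sums overlapped (exact permutation test, two-sided p = 0.0857, adjusted p = 0.0857). The adult libraries ranged from 2.33 to 1802 CPM, so rat-host replicates 2 and 4 lay above them and replicates 1 and 3 among them. All 22 members had a positive log2 fold change (median 4.53), against 5607 of all 11255 genes tested. Members with few graft reads, Plk1 and Aurkb among them, passed the low-count filter through the rat host, so their direction is no result. Where 3.82% of all genes tested were called higher, 4 members were called: the kinase genes Plk1 and Aurkb and the spindle motor genes Kif11 and Kif20a. Mki67, the usual marker of cycling cells, was not (log2 fold change 2.07, SE 1.48, adjusted p = 0.515). Without graft replicate 1, which holds fibroblast markers, 7 mitotic genes were called and the median was 5.75, and on experiment sums and by limma voom 0 were.

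Plk1, which drives entry into and passage through mitosis, was at 2.26, 114, 59.5 and 182 CPM in the rat host, and the graft held 1 read, in replicate 4. The rat-host level was 4441 times that of the graft, with a 95% counting interval of 797 to 175428 (edgeR adjusted p = 0.00393). Aurkb, the kinase of the chromosomal passenger complex, had 2 graft reads and a ratio of 1924 (532 to 15892; adjusted p = 0.00403). Kif11, the motor that separates the spindle poles, had a ratio of 868 (240 to 7168; adjusted p = 0.00499), and Kif20a, a motor of cell division, had a log2 fold change of 6.62 (SE 1.27, adjusted p = 0.0158). All 4 lost the call on experiment sums (adjusted p 0.198 to 0.437) and by limma voom (0.0730 to 0.241), and Kif20a lost it without rat-host replicate 2 (0.0569) or 4 (0.0645).

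Promoters of mitotic genes are known to carry CCAAT boxes and the cell cycle homology region TTTGAA, and the promoters of the called genes Plk1 and Kif11 are shown for that reason. They are the 250 bases before the start in the RefSeq table (GRCm38.p6), with capitals marking the first motif or the second one, read on either strand. The Plk1 window holds CCAAT only, and the Kif11 window holds both motifs.
Plk1, chr7:122159185-122159434, plus strand: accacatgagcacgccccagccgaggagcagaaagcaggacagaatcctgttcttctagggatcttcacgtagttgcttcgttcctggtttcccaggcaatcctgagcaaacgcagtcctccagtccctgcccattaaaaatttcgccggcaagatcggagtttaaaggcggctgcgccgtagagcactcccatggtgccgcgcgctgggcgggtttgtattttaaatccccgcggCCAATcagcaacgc
Kif11, chr19:37376132-37376381, plus strand: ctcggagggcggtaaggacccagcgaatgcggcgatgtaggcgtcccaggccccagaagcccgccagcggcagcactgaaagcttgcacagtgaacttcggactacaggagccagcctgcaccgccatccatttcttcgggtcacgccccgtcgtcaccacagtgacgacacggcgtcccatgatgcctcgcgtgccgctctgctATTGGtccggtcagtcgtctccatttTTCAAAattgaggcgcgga
On either strand, CCAAT was in 16 of 19 promoters of mitotic genes (84.2%), in 11 of 21 of replication genes (52.4%) and in 33.8% of all 32851 promoters in the table. TTTGAA was in 8 of the 19 (42.1%), in 9.52% of those of replication genes and in 5252 of all 32851. The motifs were searched independently, and both were in 42.1% of mitotic promoters against 5.55% of all, counted over the 18 of 22 mitotic and 16 of 20 replication genes found in the table. A match describes the letters of this window and is not evidence of binding.

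**Figure D3:**
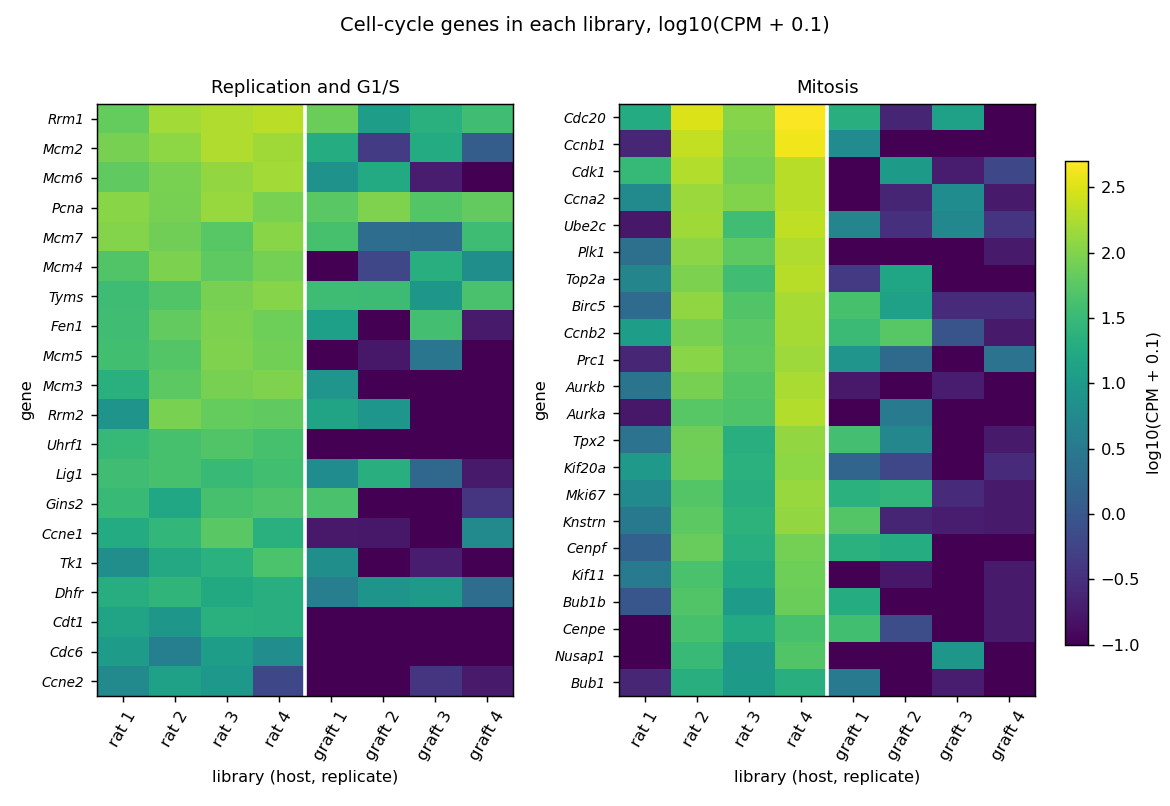
Level of each replication gene (left) and mitotic gene (right) in the 4 rat-host and 4 graft libraries, as log10(CPM + 0.1) in colour, genes sorted by their rat-host mean. Replication genes are bright in all rat-host libraries, while mitotic genes are bright in rat-host replicates 2, 3 and 4 and dim in replicate 1.

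Further cell-division genes headed the ranking by fold change. Ncaph (a condensin subunit), Kif18b (a spindle motor), Fbxo5 (an inhibitor of the anaphase-promoting complex), the kinase gene Melk and the DNA repair gene Fignl1 had no graft read and were at least 682-, 527-, 496-, 481- and 449-fold higher. Their edgeR adjusted p lay between 0.00541 and 0.0198. None was called on experiment sums, where the adjusted p was 0.0583 for Fbxo5 and 0.0991 to 0.351 for the others, and Ncaph and Fignl1 lost the call without rat-host replicate 2, 3 or 4 (0.0549 to 0.0682) and by limma voom. Ccnd3, the cyclin D3 gene, was higher at a level that every pool shared, with 596, 498, 446 and 465 CPM against 143, 169, 146 and 237 CPM. Its arms did not overlap, and it was called in both fits (log2 fold change 1.51, SE 0.18, edgeR adjusted p = 0.00198; 0.0234 on experiment sums). It was the 1 called gene among 16 tested growth brakes and p53 targets.

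Of 11 tested fetal and neonatal genes, 3 were called, all higher (median 2.20), where 3.82% of all genes tested were called higher. The 3 became 1 without any 1 of the rat-host libraries. Igf2bp3, a fetal RNA-binding protein gene, was at 31.6, 25.9, 23.6 and 25.7 CPM in the rat host against 5.50, 2.32, 0.830 and 0.879 CPM in the graft, with adult means of 0.406 to 2.76 CPM. The rat host stood above both (log2 fold change 3.46, SE 0.80, edgeR adjusted p = 0.0289). Igf2bp1, of the same family, had 287 rat-host reads and 1 graft read, a ratio of 248 (95% counting interval 44.1 to 9814; adjusted p = 0.0213). Marcksl1, a gene of the growing cytoskeleton, was at 175 ± 17.6 against 52.7 ± 14.9 CPM (SD, n = 4; 1.71, SE 0.23, adjusted p = 0.00329). Marcksl1 kept its call without any 1 library, whereas Igf2bp3 lost it without graft replicate 2 or any rat-host library (0.0516 to 0.0906) and Igf2bp1 without graft replicate 2 or 3 or any rat-host library (0.0534 to 0.0646). On experiment sums none of the 3 was called (adjusted p 0.295 for Igf2bp3, 0.376 for Igf2bp1 and 0.0888 for Marcksl1).

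The receptors of the GDNF family differed in opposite directions. These GFRA proteins bind ligands of the glial-derived neurotrophic family and signal through Ret or the adhesion molecule Ncam1. Gfra4, the persephin receptor gene, was at 1.02, 4.45, 1.03 and 6.95 CPM in the rat host and at 350, 266, 435 and 257 CPM in the graft. The graft lay within the adult range of 217 to 410 CPM and the rat host far below it (log2 fold change -6.61, SE 0.66, edgeR adjusted p = 0.000699; 0.00730 on experiment sums).

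Gfra2, the neurturin receptor gene, went the other way, at 179, 250, 213 and 245 CPM against 30.4, 27.8, 16.4 and 12.1 CPM. Here both arms lay outside the adult means of 40.7 to 77.2 CPM, on opposite sides (3.33, SE 0.31, adjusted p = 0.000470; 0.0224 on sums). Gfra1, the GDNF receptor gene, was at 22.97, 17.7, 15.1 and 19.2 CPM and had no graft read, at least 304-fold higher (adjusted p = 0.00607; 0.0421 on sums). Ncam1 was at 14.0 against 0.0828 CPM (7.23, SE 1.52, adjusted p = 0.0206; 0.208 on sums), and lost the call without rat-host replicate 2, 3 or 4 (0.0649 to 0.0701). Ret did not pass the filter on low counts.

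Cdh3, the P-cadherin gene of embryonic epithelia, was at 62.1, 88.7, 87.5 and 65.4 CPM, with 1 read in the graft and adult means of at most 1.47 CPM. The ratio was 3682 (95% counting interval 661 to 145475; edgeR adjusted p = 7.45e-05). Ptprz1 (a receptor phosphatase), Dbn1 (the actin-binding protein drebrin) and Grb10 (an imprinted adaptor that restrains insulin receptor signalling) had 1538, 1427 and 1391 rat-host reads and no graft read. They were at least 442-, 410- and 400-fold higher (adjusted p 0.00329 to 0.00492), and their adult means did not exceed 3.01 CPM. These 4 genes were not called on experiment sums (adjusted p 0.1797 to 0.363). Cdh1, the E-cadherin gene, was at 297, 253, 223 and 208 CPM against 28.04, 119, 35.7 and 56.5 CPM (2.02, SE 0.41, adjusted p = 0.0187; 0.0604 on sums). It was 1 of 3 genes called higher among 15 tested adherens junction and keratin genes, with 1 lower (1 and 0 without any 1 of the rat-host libraries), and it lost the call without any rat-host library (0.0515 to 0.0597).

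Of 16 tested matrix genes, 5 were called higher and 1 lower in the rat host (median 0.69), where 7.46% of all genes tested were called. The 5 became 3 without rat-host replicate 1 or 2 and 2 without replicate 4. Efemp1, the gene of the elastic-fibre protein fibulin-3, was at 2234, 1770, 1884 and 2245 CPM in the rat host and at 128, 223, 80.3 and 110 CPM in the graft. The graft held the adult level (107 to 144 CPM) and the rat host stood far above it (log2 fold change 3.89, SE 0.30, edgeR adjusted p = 0.000239; 0.00367 on experiment sums). Npnt, the gene of nephronectin, a basement membrane ligand of integrins, was at 2778, 2772, 2743 and 2689 CPM against 619, 654, 841 and 763 CPM. The rat-host pools were nearly equal, and the difference was called in both fits (1.91, SE 0.11, adjusted p = 4.17e-05; 0.0177 on sums).

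Col4a1 and Col4a2 encode the chains of the main type IV collagen and are transcribed head to head. Col4a2 was at 110, 146, 98.3 and 133 CPM against 10.3, 7.53, 2.95 and 1.14 CPM (edgeR log2 fold change 4.45, SE 0.62; adjusted p = 0.00393; 0.0211 on sums). Col4a1 was at 144, 176, 103 and 135 CPM against 40.6, 5.72, 17.3 and 26.6 CPM (2.61, SE 0.51, adjusted p = 0.0169; 0.0345 on sums). The arms did not overlap for either gene, although Col4a1 lost its call without rat-host replicate 2 (0.0588) or 4 (0.0524). The graft library with the most Col4a1 and Col4a2 was replicate 1, which also held the fibroblast markers, and without it Col4a1 and Col4a2 stayed called.

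Higher in the graft were Serpine2 and Spp1. Serpine2, the secreted protease inhibitor nexin-1, was at 1520, 1531, 1660 and 1742 CPM in the rat host and at 5602, 5670, 5799 and 7524 CPM in the graft (log2 fold change -1.95, SE 0.11, edgeR adjusted p = 4.17e-05; 0.0307 on sums). Its adult means of 3942 to 5771 CPM lay near the graft. Spp1, the gene of osteopontin, was at 234, 1346, 1282 and 1344 CPM against 3973, 3326, 3002 and 8663 CPM (-2.19, SE 0.54, adjusted p = 0.0393). Its adult experiment means spread from 184 to 4191 CPM, and the call was lost on experiment sums (0.657) and without graft replicate 1, 2 or 4 or rat-host replicate 2, 3 or 4 (0.0542 to 0.0957). Itga7, a laminin-binding integrin, and Col23a1, a membrane collagen, had 8 and 11 reads in the rat host against 2025 and 1933 in the graft. Their log2 fold changes were -8.15 (SE 0.95, adjusted p = 0.00155; 0.0177 on sums) and -7.58 (SE 1.17, adjusted p = 0.00599; 0.0162 on sums), and limma voom called neither (0.0817 and 0.0754).

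**Figure D4:**
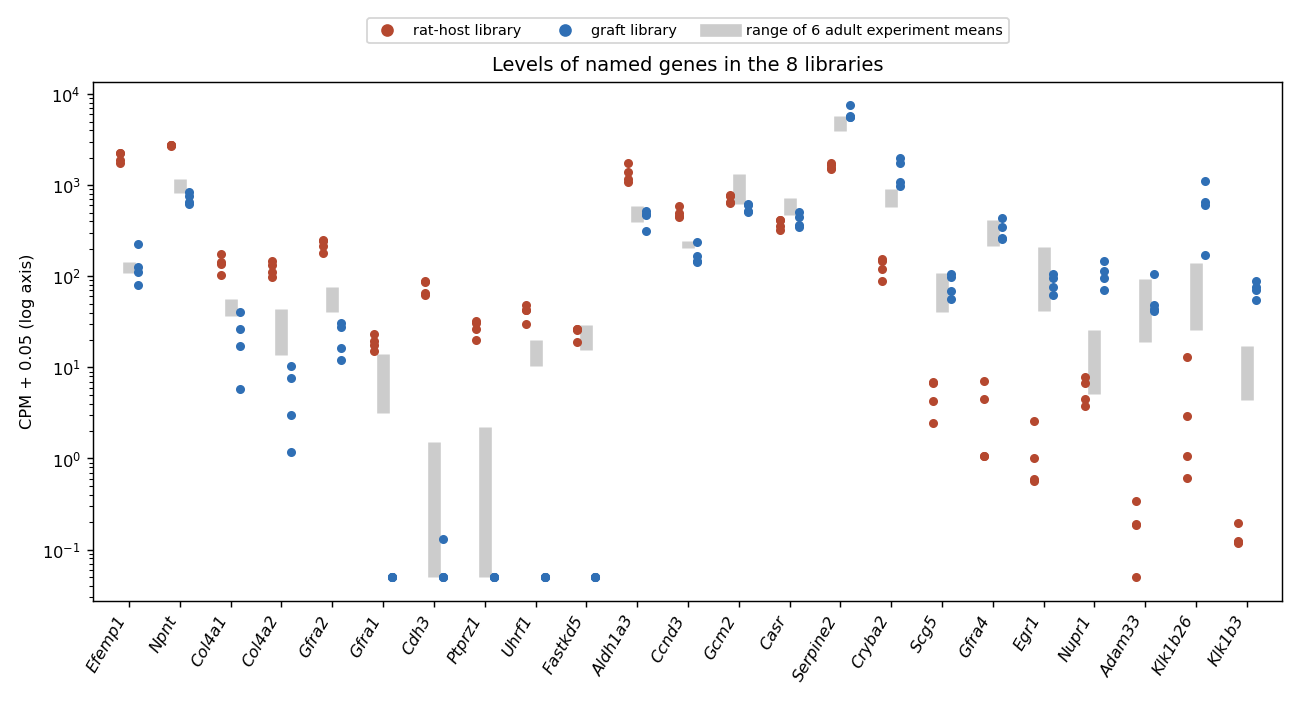
CPM (log axis, with 0.05 added) of 23 named genes in the 4 rat-host libraries (red) and 4 graft libraries (blue), with the range of the 6 adult experiment means in grey. For Efemp1, Cdh3 and Ptprz1 the rat host stands above the adult range, for Scg5, Gfra4 and Adam33 it stands below it, and for Klk1b26, Klk1b3 and Nupr1 the graft stands above it.

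Tissue kallikreins were higher in the graft, and were grouped after their values had been seen. These are secreted serine proteases best known from salivary gland and kidney, encoded in mouse by a cluster of near-identical Klk1 and Klk1b genes. Summed over 14 genes they reached 508, 2320, 1968 and 2378 CPM in graft replicates 1 to 4. In the rat host the sum was 2.11, 4.45, 12.2 and 22.6 CPM, and in the adult libraries 56.8 to 865 CPM. Graft replicates 2, 3 and 4 lay above the adult range, and graft replicate 1 lay inside it. The 8 members that passed the low-count filter did so through the graft, so their number called is no result, and their log2 fold changes lay between -6.78 and -9.54. Klk1b3 was at 0.146, 0.0707, 0.0734 and 0.0675 CPM against 54.7, 76.7, 69.9 and 88.1 CPM (-9.54, SE 0.48, edgeR adjusted p = 2.00e-05; 0.00896 on sums). Klk1b26 was at 1.02, 0.565, 2.86 and 12.9 CPM against 171, 646, 613 and 1113 CPM (-7.20, SE 1.05, adjusted p = 0.00475; 0.0197 on sums, 0.221 by limma voom). Reads of these paralogues can be assigned to the wrong copy, so the sum is firmer than any 1 gene.

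Other genes of the adult or grafted cell were low or missing in the rat host. Cryba2, a beta-crystallin family gene, was at 89.4, 121, 155 and 147 CPM in the rat host and at 1075, 972, 1771 and 2007 CPM in the graft (log2 fold change -3.53, SE 0.29, edgeR adjusted p = 0.000287; 0.00896 on sums). The adult means, 570 to 919 CPM, lay between the arms. Pla2g7, a secreted phospholipase that inactivates platelet-activating factor, was at 1248, 2206, 1500 and 2057 CPM against 6445, 7718, 8482 and 10309 CPM (-2.25, SE 0.21, adjusted p = 0.000448; 0.0535 on sums). Its adult means of 3231 to 5881 CPM also lay between. Nupr1, a small stress-induced nuclear protein, was at 4.45, 6.64, 7.78 and 3.71 CPM against 71.3, 95.4, 113 and 149 CPM (-4.26, SE 0.37, adjusted p = 0.000355; 0.110 on sums). Here the rat host matched the adult means of 5.11 to 25.8 CPM and the graft was above them.

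The histone gene Hist1h2bc was at 69.6 ± 16.3 CPM in the rat host and 356 ± 64.9 CPM in the graft (SD, n = 4), a log2 fold change of -2.37 (SE 0.21, edgeR adjusted p = 0.000379; 0.0177 on sums). Klhl33, the metalloprotease gene Adam33 and the endocytosis gene Pacsin1 had 7, 8 and 7 reads over the rat-host libraries and 3180, 2845 and 718 over the graft libraries. Their log2 fold changes were -9.05 (SE 0.96), -8.64 (SE 0.84) and -6.79 (SE 1.04), with adjusted p of 0.000936, 0.000610 and 0.00529, and each was called on experiment sums. Limma voom did not call Klhl33 (0.133). Tceal3 had 2 rat-host reads, and the graft level was 183 times as high (95% counting interval 50.1 to 1514; adjusted p = 0.0207, lost without any rat-host library at 0.0705 to 0.0794). The adult means of these 4 genes, 12.5 to 94.3 CPM, lay above the rat host in each case. Among 12 tested immediate early genes 1 was lower, the stimulus-induced transcription factor gene Egr1, at 0.510, 2.54, 0.954 and 0.540 CPM against 75.7, 62.1, 96.1 and 105 CPM (-6.23, SE 0.62, adjusted p = 0.000699; 0.0505 on sums), and 1 was higher.

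A smaller set of genes had few or no reads in the graft but was present in the rat host and in adult cells alike. Fastkd5, needed for processing mitochondrial RNA, was at 26.5, 25.5, 26.4 and 19.1 CPM in the rat host with adult means of 15.5 to 28.8 CPM, and no graft library held a read. It was at least 393-fold higher in the rat host (edgeR adjusted p = 0.00393; 0.00541 on sums). Orc5, a subunit of the origin recognition complex, had 1004 rat-host reads and 1 graft read, a ratio of 866 (95% counting interval 155 to 34247; adjusted p = 0.00475; 0.00896 on sums). Amph, the endocytic protein amphiphysin, had 1694 and 3 reads, a ratio of 487 (166 to 2365; adjusted p = 0.000936; 0.00896 on sums). Casp2, the caspase-2 gene, was at 37.8 against 0.422 CPM (log2 fold change 6.44, SE 1.02, adjusted p = 0.00636; 0.0146 on sums). Vps8, of an endosomal tethering complex, was at 23.7 against 0.503 CPM (5.52, SE 1.40, adjusted p = 0.0442; 0.00896 on sums). The call of Vps8 was lost in the 8-library fit without graft replicate 1 or 3 or any rat-host library (0.0707 to 0.125).

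Mitochondrial transcripts were lower in the rat host. The 13 mitochondrially encoded genes, all of them subunits of the respiratory chain and ATP synthase, took 1.76%, 1.61%, 1.58% and 1.54% of reads in the rat host and 3.98%, 3.69%, 2.82% and 3.15% in the graft (exact permutation test, two-sided p = 0.0286, adjusted p = 0.0429, lower in 4 of 4 rat-host libraries). The adult libraries ranged from 1.34% to 3.90%, so the graft was at their upper end and the rat host near their lower end. All 13 were called lower (median -2.11). The members differed in size, with mt-Co1 at -0.95 (SE 0.09, edgeR adjusted p = 0.000610) and mt-Co3 at -1.06 (SE 0.09, adjusted p = 0.000355), but mt-Cytb at -1.54 (SE 0.11), mt-Atp6 at -2.25 (SE 0.18) and mt-Nd1 at -2.38 (SE 0.17). None of the 13 was called on experiment sums, where the median was -2.08 and these 5 had adjusted p of 0.0648 to 0.256.

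Of 34 tested nuclear genes of the respiratory chain, 16 were called lower and 0 higher, with a median of -0.43 that became 0.18 on the TPM scale, where all genes had a median of 0.55 and 8 of the list were called higher and 1 lower. Cox7c, of cytochrome oxidase, was at 89.0 against 210 CPM (edgeR log2 fold change -1.25, SE 0.18; adjusted p = 0.00412), and Uqcrb, of complex III, at 138 against 247 CPM (-0.86, SE 0.13, adjusted p = 0.00469), although Uqcrb was not called on the TPM scale (0.103). The count of 16 was 10 without rat-host replicate 1, 6 without replicate 2, 5 without replicate 3, 6 without replicate 4 and 10 without graft replicate 4. Of 35 tested cytosolic ribosomal protein genes, 7 were called lower and 0 higher, with a median of -0.39 that became 0.23 on the TPM scale, where 9 were called higher and 1 lower. Rplp1, of the ribosomal stalk, was at 122 against 250 CPM (-1.06, SE 0.15, adjusted p = 0.00452). The 7 calls became 3, 2, 1 and 3 without rat-host replicates 1, 2, 3 and 4, and 4 and 3 without graft replicates 3 and 4. None of the genes in these lists was called on experiment sums.

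Of 18 tested genes for translocation into the endoplasmic reticulum and signal peptide removal, 6 were called lower and 1 higher (median -0.65), against 0 lower and 2 higher on the TPM scale (median -0.12). Spcs1, of the signal peptidase, was at 392 ± 22.8 against 683 ± 74.6 CPM (SD, n = 4; log2 fold change -0.82, SE 0.11, edgeR adjusted p = 0.00300), but not on the TPM scale (0.110). Ssr2, of the translocon-associated complex, was the 1 higher gene, at 673, 562, 717 and 577 CPM against 158, 232, 169 and 240 CPM (1.64, SE 0.17, adjusted p = 0.000730). Of 19 tested chaperones of the endoplasmic reticulum, 6 were lower and 2 higher (median -0.27), against 0 lower and 3 higher on the TPM scale (median 0.31). The 2 higher ones were the disulphide isomerase genes P4hb at 1.01 (SE 0.17, adjusted p = 0.00819) and Pdia6 at 0.96 (SE 0.11, adjusted p = 0.00106). The 6 lower calls were 0 without rat-host replicate 4, 2 without rat-host replicate 2 or 3, and 3 without rat-host replicate 1 or graft replicate 2 or 3, whereas the 2 higher calls held without any 1 library. Among 16 tested cytosolic heat-shock chaperones 3 were lower and 1 higher (median -0.40), against 1 lower and 5 higher on the TPM scale (median 0.07), and 1 was lower without graft replicate 2, 3 or 4 or any rat-host library, with the small chaperone gene Hspb1 at 45.1 against 128 CPM (-1.53, SE 0.18, adjusted p = 0.00144). None of the genes named here was called on experiment sums (adjusted p 0.0664 to 0.221).

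Of 20 tested lysosomal genes, 6 were called higher and 1 lower (median 0.63), where 7.46% of all genes tested were called. The 6 were 5 to 8 when any 1 library was left out. On experiment sums 0 were called. Ctsd, the cathepsin D gene, was at 866, 817, 878 and 806 CPM against 207, 275, 121 and 396 CPM (edgeR log2 fold change 1.73, SE 0.30; adjusted p = 0.00956). Ctsa, of a protective lysosomal carboxypeptidase, was at 461 against 167 CPM (1.45, SE 0.12, adjusted p = 0.000287), and Psap, the saposin precursor, at 633 against 226 CPM (1.47, SE 0.20, adjusted p = 0.00331). Lgmn, the lysosomal protease legumain, which the list does not hold, was at 1517, 1565, 1382 and 1771 CPM against 437, 642, 561 and 441 CPM (1.57, SE 0.15, adjusted p = 0.000448). The arms were apart for each of these genes.

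Of 17 tested glycolytic genes, 5 were called higher and 1 lower (median 0.61), where 7.46% of all genes tested were called. The 5 were 3 without any 1 of the rat-host libraries. On experiment sums 0 were higher and 1 lower. Gapdh was at 2456, 2128, 2352 and 2584 CPM against 1420, 1161, 1495 and 1246 CPM (edgeR log2 fold change 0.82, SE 0.11; adjusted p = 0.00331), and Eno1 was at 1147 against 505 CPM (1.16, SE 0.17, adjusted p = 0.00522). Ldhb, the lactate dehydrogenase B gene, had 1103 rat-host and 3 graft reads, a ratio of 317 (95% counting interval 108 to 1541; adjusted p = 0.0102). Aldh1a3, which makes retinoic acid, was at 1156, 1097, 1751 and 1409 CPM against 312, 525, 477 and 472 CPM (1.58, SE 0.19, adjusted p = 0.00216). The cytoplasmic actin gene Actg1 was at 1356 against 556 CPM (1.27, SE 0.18, adjusted p = 0.00413). None of the lysosomal and glycolytic genes named here, nor Aldh1a3 or Actg1, was called on experiment sums, where Aldh1a3 was nearest at 0.0529 and Actg1 farthest at 0.229.

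Of 21 tested cholesterol synthesis genes, 2 were called, both higher (median 0.92), where 7.46% of all genes tested were called, and 0 on experiment sums. Of 12 tested fatty acid synthesis genes, 3 were called, all higher (median 1.07), and Fads1, the delta-5 desaturase, had 886 rat-host reads and 1 graft read, a ratio of 764 (95% counting interval 137 to 30226; edgeR adjusted p = 0.00629; 0.244 on sums). The 3 calls became 1 without graft replicate 2 or any rat-host library, and the 2 of cholesterol synthesis became 1 without graft replicate 2 or rat-host replicate 1, 2 or 4.

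Of 12 tested interferon-stimulated genes, 3 were called, all higher in the rat host (median 1.86), where 3.82% of all genes tested were called higher. The list had 9 positive and 3 negative log2 fold changes. DESeq2 called 3 higher and 2 lower. The summed level of the 19 listed genes was nearly equal, with a mean of 666 CPM (SD 205.5) for rat-host pools and 670 CPM (SD 277) for graft pools. Ifitm3, the member with the highest mean in each arm, was lower without being called (-1.22, SE 0.36, edgeR adjusted p = 0.0765). The antiviral gene Oas1a had 1280 rat-host reads and 1 graft read, a ratio of 1104 (95% counting interval 198 to 43652; edgeR adjusted p = 0.00322; 0.499 on sums), and Usp18, a brake on interferon signalling, was at 14.5 against 0.113 CPM (6.90, SE 1.46, adjusted p = 0.0207; 0.261 on sums). Usp18 lost its call without any 1 of the rat-host libraries (0.0597 to 0.0687). B2m, the light chain of MHC class I, was lower, at 54.7, 33.5, 58.7 and 67.1 CPM against 136, 282, 98.6 and 159 CPM (-1.67, SE 0.34, adjusted p = 0.0185; 0.185 on sums). It lost its call without rat-host replicate 1, 2 or 3 (0.0535 to 0.0612), and MHC class I genes as a list had 1 higher and 1 lower of 14 tested (median -0.47).

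Gnai3, an inhibitory G protein subunit through which the calcium receptor can act, was at 177, 205, 178 and 159 CPM against 84.9, 35.8, 84.3 and 52.2 CPM (edgeR log2 fold change 1.46, SE 0.28; adjusted p = 0.0158; 0.0463 on sums). It lost its call without rat-host replicate 2 (0.0580) or 3 (0.0516). Among 14 tested genes of calcium receptor signalling it was 1 of 3 called higher, with 0 lower, where 3.82% of all genes tested were called higher. The 3 became 1 without any 1 of the rat-host libraries. Itpr1, the calcium release channel of the endoplasmic reticulum, was at 21.6 against 89.5 CPM (-2.07, SE 0.31, adjusted p = 0.00490; 0.0584 on sums and 0.132 on the TPM scale), 1 of 2 lower among 12 tested channels (1 without rat-host replicate 2 or 3). Lrp2, the endocytic receptor megalin, which serves as a kidney tubule marker but also had adult experiment means of 388 to 1232 CPM, was at 160 against 451 CPM (-1.51, SE 0.25, adjusted p = 0.00791; 0.442 on sums). Other kidney markers (Umod, Slc12a1, Slc34a1) had no read in either arm.

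The remaining lists are given by their counts, where 7.46% of all genes tested were called in either direction. Among 23 tested glutathione and detoxification genes 4 were lower and 0 higher (median -0.55), against 2 lower and 4 higher on the TPM scale (median 0.05), with the transferase gene Gstp1 at 275 against 470 CPM (edgeR log2 fold change -0.79, SE 0.10; adjusted p = 0.00308; 0.203 on sums and 0.195 on the TPM scale). The 4 became 2, 1 and 1 without rat-host replicates 2, 3 and 4. Tight junction genes had 3 higher and 1 lower of 15, and chromatin and HMG genes 3 higher and 1 lower of 19. ATF4 targets had 1 higher and 1 lower of 13, and insulin and IGF signalling genes 1 higher of 12. Exocytosis genes had 1 higher of 11, although 9 of the 11 had a negative log2 fold change (median -0.42). DESeq2 called 0 exocytosis genes higher and 1 lower. Among 15 tested clock genes, 13 hypoxia-response genes and 9 amino acid transporter genes, 0 were called by edgeR, where 2, 2 and 1 had an unadjusted p below 0.05, and DESeq2 called 2 clock genes lower, 1 hypoxia-response gene higher and 0 transporter genes.

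**Figure D5:**
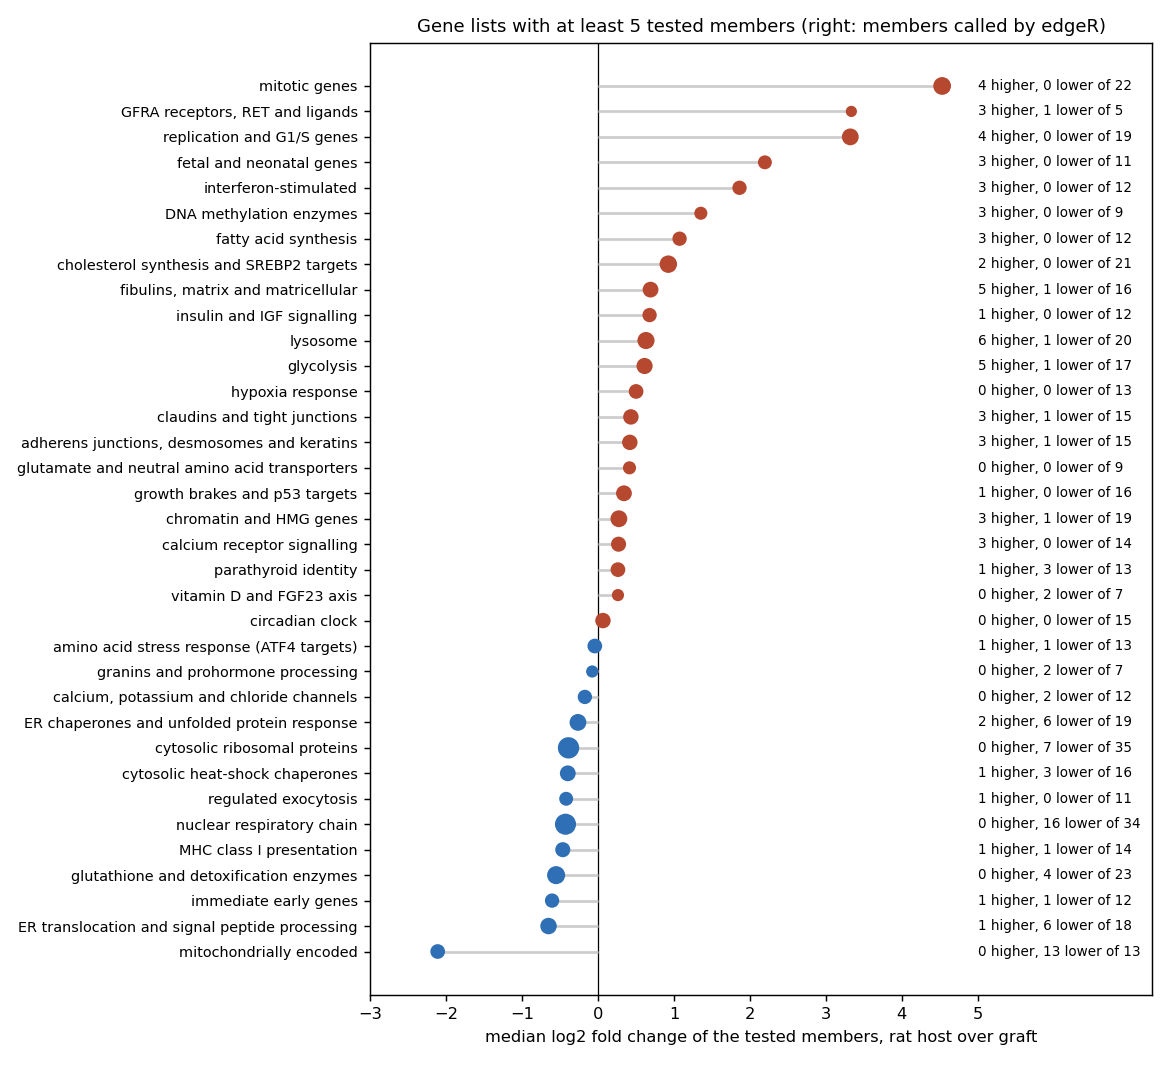
Median log2 fold change, rat host over graft, of the tested members of each gene list with at least 5 such members (x axis), point area growing with their number, and on the right the members called by edgeR in each direction. Mitotic genes, with a median of 4.53 and 4 of 22 called, lie farthest to the right, and the mitochondrially encoded genes, with -2.11 and 13 of 13 called, farthest to the left.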

How the data were processed

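Each sample is a pool of reporter-positive cells. The submitters' processing notes name Salmon and the GRCm39 mouse build, and as used here give neither a version nor a transcript annotation. For each transcript the authors deposited an expected count (estimated read count), a TPM and an effective length. Expected counts and TPM were summed per gene, using GENCODE M21 gene names for 115685 of 116747 transcripts; the 1062 unmatched held 0.572% of reads in the 8 libraries and were left out. Gene sums were rounded to whole numbers.

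The main test was edgeR 4.0.16 (R 4.3.3) with TMM scaling, filterByExpr, a robust quasi-likelihood fit to the 8 libraries and Benjamini-Hochberg adjustment over 11255 genes at 0.05. Printed levels are CPM with TMM scaling over all 32 libraries, and means are given with SD over 4 libraries. Floors are 3 reads over an arm (0.0533 CPM in the rat host, 0.0618 CPM in the graft). Intervals of ratios are exact 95% counting intervals. Without molecular identifiers, intervals and floors cover counting error only. Library values were tested with exact two-sided permutation tests (SciPy 1.17.1), adjusted over 6. The script was tested on simulated counts before use.

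The 20 alternatives cover scaling, low-count filters, DESeq2 1.42.0, limma 3.58.1 (voom on counts, limma-trend on log2(TPM + 1)), effective lengths, all libraries, experiment sums, a replicate block and leaving out each library. The gene groups, members and lists were chosen with earlier results of these data known. Named genes were those not overlapping between arms that were called with the 12 highest and 12 lowest log2 fold changes at 20 CPM or more, the 8 largest CPM differences each way, the 8 smallest p on experiment sums each way, the 4 called members of each list with the smallest p, and members needed to describe a list. Values of a few genes are not reported here.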

Additional observations from a re-analysis of the deposited data

Results flagged for a closer look

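In 183 groups of 4 libraries, 18 values lay far from the other 3 of their arm, judged by the gap to the nearest library as a share of the range. Chance alone flags about 1 in 20 groups. The flags were 1 library far from its arm in each case, and their cause was not tested.

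Several flags are single reads in an arm otherwise at 0. The 0.0879 CPM of Plk1, Igf2bp1, Fads1 and Oas1a in graft replicate 4, the 0.0797 CPM of Cdh3 in graft replicate 1 and the 0.0724 CPM of Orc5 in graft replicate 2 are 1 read each. Ldhb was at 0.217 CPM in graft replicate 2 and at 0 in the other graft libraries. Amph was at 0 in graft replicate 2 only. Klk1b3 was at 0.146 CPM in rat-host replicate 1, and Klhl33 at 0.0734 CPM in rat-host replicate 3.

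Other flags concern well-expressed genes. Pth stood at 45371 CPM in rat-host replicate 1, against at most 42505 CPM in the other rat-host libraries. Serpine2 stood at 7524 CPM in graft replicate 4 (next library 5799 CPM), and Adam33 at 105.5 CPM there (next 47.9 CPM). Spp1 was low in rat-host replicate 1 at 233.7 CPM (next 1282 CPM). Mcm5 was at 2.77 CPM in graft replicate 3, Vps8 at 1.76 CPM in graft replicate 4, and Fastkd5 at 19.1 CPM in rat-host replicate 4, each apart from the rest of its arm. The summed level of replication genes was 330.6 CPM in graft replicate 1 (next 201 CPM), the library with 418 CPM of fibroblast markers, and whether those cells take part in the difference was not tested.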

How the results depend on the processing

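Against 840 genes called (430 higher, 410 lower), DESeq2 called 1864 (926 higher, 938 lower), experiment sums 126 (79 and 47), limma-trend on TPM 2099 (1928 and 171) and the replicate block 245 (109 and 136). Limma voom called 651 higher, limma-trend on TMM-scaled TPM (added after seeing the data) 646 higher, and the fit to all 32 libraries 634 lower. Leaving out 1 library gave 316 to 999 calls, 151 to 559 higher and 165 to 440 lower. On the other settings these counts stayed within 1.5 times. Casr changed sign on the TPM scale, to 0.36. Of the remaining values for genes and lists, 199 lost the call, 5 gained it and 2103 kept direction and side of the threshold, and 207 list medians moved. Replicate numbers do not pair the libraries: same-numbered pairs correlated at -0.0388, 0.0147, 0.0018 and 0.0011, and the block result is given only as a count. Few pools per arm, and levels near 1 read in the graft for many of the higher genes, limit the precision of folds, and host, age, sex label and grafting cannot be separated.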
